A study of Caenorhabditis elegans with 45 samples.

Results

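The data describe 10 genes: 9 that encode eggshell components of *Caenorhabditis elegans*, their synthesis or their assembly at the oocyte surface, and *rme-2*, which encodes the yolk receptor of the oocyte. They were chosen by name, as *cbd-1*, *perm-2*, *perm-4*, *egg-1*, *egg-2*, *egg-3*, *chs-1*, *cpg-1*, *cpg-2* and *rme-2*, and all 10 of 10 were present among the 18589 genes of the normalized expression table. RNA of whole day 1 adult hermaphrodites, collected when the first eggs appeared, was sequenced in 45 libraries. These came from the wild strains QX1211, CB4856, EG4348 and JU1088 and the laboratory strain N2. Each strain was studied under *par-1* RNAi, *pos-1* RNAi and a control, and each of these 15 groups has 3 biological replicates. The worms of all groups ate HT115 *Escherichia coli*, which carried a vector making double-stranded RNA of *par-1* or *pos-1*, or the empty vector pL4440 in the control. All groups were fed these bacteria at 20 °C. Before the experiment QX1211 had been maintained at 18 °C and the other strains at 20 °C, so strain and earlier temperature cannot be told apart for QX1211. Each strain is 1 isogenic genotype.

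The eggshell is made in layers as the fertilized oocyte passes the spermatheca: an outer vitelline layer, a chitin layer and an inner layer of chondroitin proteoglycans. Most of its components, and the machinery that triggers their assembly, are deposited in the oocyte beforehand, so their mRNA in a whole worm comes mainly from the germline. Yolk is made in the intestine as vitellogenin, secreted, and taken into growing oocytes by receptor-mediated endocytosis. In whole worms, fewer oocytes and less RNA per oocyte cannot be told apart.

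The reads assigned to genes numbered 4268834 to 17864647 per library (median 7478529). The *pos-1* transcript checked the labels in 3 strains: under *pos-1* RNAi its log2 fold change against the control was -3.59 in JU1088, -2.57 in N2 and -1.23 in EG4348, but -0.05 in CB4856 and -0.13 in QX1211, where the test was not passed. The *par-1* transcript did not pass the test under *par-1* RNAi in any strain, with log2 fold changes between -0.18 and 0.24. The transcripts thus gave no check of the *par-1* RNAi labels, nor of *pos-1* RNAi in CB4856 and QX1211, and groups are named as labelled. In JU1088, the second replicates of both RNAi treatments had lower levels of most of the 10 genes than the other libraries of their groups. The labels give the same fragment length for 3 libraries: the first control of QX1211, the third *par-1* RNAi library of CB4856 and the second *pos-1* RNAi library of JU1088. Without these 3 libraries, QX1211 controls were lower for 6 of the 10 genes against N2, 6 against JU1088, 7 against EG4348 and 6 against CB4856, beside 6, 7, 9 and 6 with them. The counts of genes lowered by *par-1* RNAi at an adjusted p under 0.1, whatever the fold change, were then 5 in QX1211, 4 in CB4856 and 8 in JU1088, beside 6, 2 and 6 with them.

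Levels of different genes were compared per length, as TPM (transcript abundance scaled to the same total in every library), over the 15 control libraries. The proteoglycan core protein gene *cpg-1* stood highest with 1966 ± 288 TPM (SD, n = 15), followed by the vitelline layer gene *perm-2* with 1689 ± 126 TPM. These 2 ranges overlapped, and both lay above those of the other 8 genes. In QX1211 controls the order was the reverse, with 1755 ± 113 TPM for *perm-2* and 1490 ± 29.1 TPM for *cpg-1* (SD, n = 3), while *cpg-1* had the higher mean in the other 4 strains. The second proteoglycan gene *cpg-2* averaged 977 ± 95.3 TPM and the vitelline layer gene *perm-4* 895 ± 57.9 TPM, and their ranges overlapped. Here too QX1211 had the reverse order, with 887 ± 53.7 TPM for *perm-4* and 840 ± 69.0 TPM for *cpg-2* (SD, n = 3). The chitin-binding gene *cbd-1* averaged 711 ± 77.0 TPM, *rme-2* 431 ± 41.9 TPM and *egg-1* 350 ± 43.1 TPM; *cbd-1* overlapped with neither *perm-4* nor *rme-2*, whereas *rme-2* and *egg-1* overlapped. Chitin synthase *chs-1*, *egg-2* and *egg-3* were lowest, with 181 ± 12.8, 161 ± 12.7 and 136 ± 13.0 TPM, below all values of *egg-1*, and neighbours among these 3 overlapped. The first place of *cpg-1* depended on 1 short transcript of 483 nucleotides, C07G2.1b.1, which held 37.2% to 55.5% of its TPM but 6.29% to 10.7% of its reads. For *perm-2* the mean effective length was only 339 nucleotides, so its TPM rests on few positions.

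The genes lie on 4 chromosomes in the Ensembl annotation of WBcel235. The vitelline layer genes *perm-4* (IV, 1121494 to 1125107, minus strand) and *perm-2* (IV, 1126790 to 1128865, plus strand) are near neighbours that point away from each other, and *cbd-1* (IV, 11372991 to 11377627, plus) and *rme-2* (IV, 5470026 to 5473174, plus) are on the same chromosome. Chromosome III carries *cpg-1* (4489359 to 4491392, plus), *egg-1* (5728180 to 5730159, plus), *egg-2* (7058527 to 7060583, minus) and *cpg-2* (7102092 to 7103990, minus). The gene *egg-3* lies on II (10882408 to 10884441, minus) and *chs-1* on I (7554855 to 7559916, plus). All are protein-coding. The annotation of *chs-1* overlaps T25G3.3 on its own strand, so the split of reads between these genes is uncertain. The genes *perm-2*, *egg-1* and *egg-3* overlap C44B12.6, B0244.9 and *lurp-1* on the other strand, and the quantification used strand.

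Which of the genes differ between strains without RNAi was asked first, in the 15 control libraries. All 10 differed by strain (adjusted p from 4.8e-05 for *egg-1* to 0.0731 for *perm-4*, called under 0.1), where 35.1% of the 16490 genes tested did. The differences were small: the highest strain mean exceeded the lowest by a factor of 1.16 for *perm-4* up to 1.53 for *cpg-1*. EG4348 had the highest mean for 9 genes and JU1088 for *egg-1*, while QX1211 had the lowest for 7, N2 for *perm-2* and *egg-2*, and CB4856 for *perm-4*. Without a filter on low counts 8 genes passed, and with any 1 control library left out 8 to 10 passed.

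**Figure D1:**
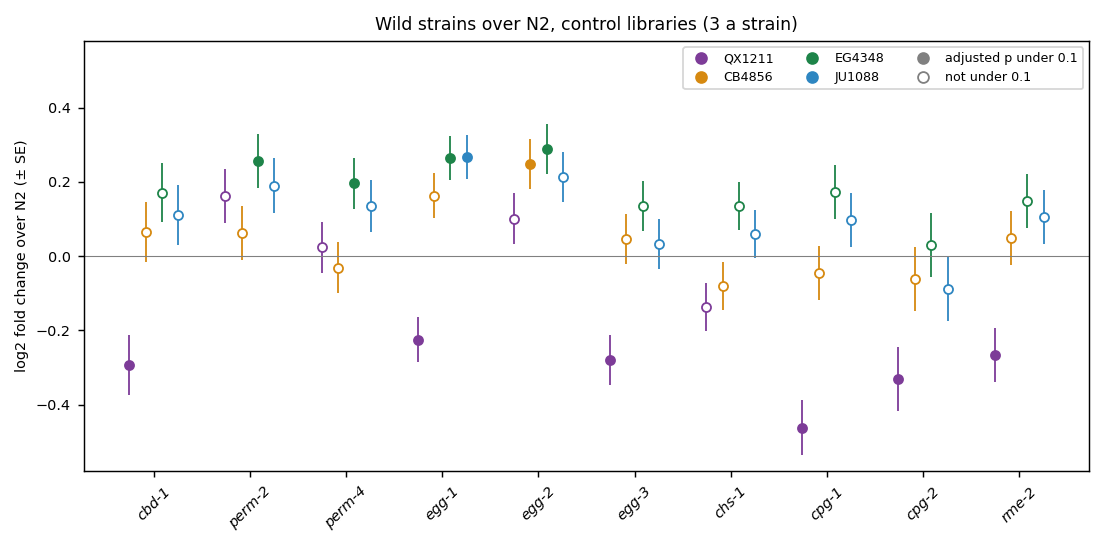
Log2 fold change of each wild strain over N2 in the control libraries (vertical axis, ± SE, 3 libraries a strain) for the 10 genes (horizontal axis). Filled points passed an adjusted p of 0.1. The QX1211 points of *cbd-1*, *egg-1*, *egg-3*, *cpg-1*, *cpg-2* and *rme-2* are filled and lie between -0.46 and -0.22, below 0, and those of *perm-2*, *perm-4* and *egg-2* lie above 0 and are open.

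The 2 genes of the inner layer, *cpg-1* and *cpg-2*, encode chondroitin proteoglycan core proteins that bind chitin. The normalized counts of *cpg-1* were 13095, 13255 and 12589 in QX1211 controls, against 18403, 18736 and 16197 in N2 controls. The QX1211 libraries were all below all libraries of the other 4 strains, whose control values lay between 16197 and 20464. The log2 fold change over N2 was -0.46 ± 0.07 (SE, adjusted p = 0.000365), a mean 27.4% lower in QX1211. For *cpg-2* the counts were 15457, 14175 and 13110 in QX1211, against 18615, 19376 and 15506 in N2. The QX1211 libraries were again lower, with a small gap to the lowest N2 library (log2 fold change -0.33 ± 0.09 SE, adjusted p = 0.0154).

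In the vitelline layer, *cbd-1* encodes the chitin-binding protein on which the layer depends, and *perm-2* and *perm-4* encode its partners. The *cbd-1* counts were 18723, 20921 and 23411 in QX1211 controls, against 23921, 26546 and 26336 in N2 controls. They did not overlap, and the log2 fold change was -0.29 ± 0.08 (SE, adjusted p = 0.0201). The *perm-2* counts were 5324, 5243 and 5807 in QX1211, against 4430, 5010 and 5105 in N2. All QX1211 libraries lay above all N2 libraries, but the difference missed the threshold (0.16 ± 0.07 SE, adjusted p = 0.161). For *perm-4*, QX1211 had 8099, 8007 and 8804 and N2 had 7492, 8391 and 8463, which overlapped (0.02 ± 0.07 SE, adjusted p = 0.871). As a ratio within libraries, *perm-2* to *cbd-1* was 0.248 to 0.284 in QX1211 controls and 0.185 to 0.194 in N2 controls.

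On the oocyte surface, *egg-1* and *egg-2* encode related transmembrane proteins with LDL-receptor repeats that are needed for fertilization, and *egg-3* encodes a phosphatase-like protein that holds chitin synthase and other factors at the cortex. The *egg-1* counts were 4086, 3785 and 4016 in QX1211 controls, against 4561, 4659 and 4594 in N2 controls. The groups did not overlap (-0.22 ± 0.06 SE, adjusted p = 0.0176). For *egg-2* they were 2011, 2104 and 2255 in QX1211 and 1933, 1923 and 2041 in N2, which overlapped (0.10 ± 0.07 SE, adjusted p = 0.365). The ratio of *egg-1* to *egg-2* was 1.78 to 2.03 in QX1211 controls and 2.25 to 2.42 in N2 controls. The sequences are alike, and how the quantification divided shared reads was not tested, but with both genes summed the QX1211 difference from N2 was -0.12 (adjusted p = 0.215). The *egg-3* counts were 1532, 1491 and 1439 in QX1211, against 1817, 1906 and 1667 in N2, and did not overlap (-0.28 ± 0.07 SE, adjusted p = 0.00958).

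The yolk receptor *rme-2*, a member of the LDL receptor family, had 7554, 8249 and 8729 normalized counts in QX1211 controls, against 9222, 10527 and 9569 in N2 controls. The groups did not overlap, and the log2 fold change was -0.27 ± 0.07 (SE, adjusted p = 0.0211). Chitin synthase *chs-1*, which makes the chitin layer, had 4152, 4770 and 4763 in QX1211 and 4887, 5069 and 4991 in N2. These did not overlap either, but the difference missed the threshold (-0.14 ± 0.07 SE, adjusted p = 0.180).

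Thus 6 of the 10 genes were lower in QX1211 than in N2, where 11.5% of all genes tested were lower. The authors place QX1211 farthest from N2 in sequence among these strains. They caution that reads of diverged strains may fail to map, possibly even with a transcriptome built for each strain. The *cbd-1* transcript with reads had 4356 nucleotides in QX1211 and 4359 in N2, and that of *perm-4* 1140 and 1143. Lengths for the other genes were equal in both strains. The part of such read loss in the strain differences was not tested. Against the other wild strains, QX1211 was lower for 9 genes against EG4348 (all but *perm-2*; 13.5% of all genes), for 7 against JU1088 (10.5%) and for 6 against CB4856 (10.4%). The largest of these differences was *cpg-1* against EG4348, with a log2 fold change of -0.63 ± 0.07 (SE, adjusted p = 1.4e-05). When the strains were ordered by their mean, 6 of 40 pairs of neighbours passed the test, each of them QX1211 and the strain next above it, for *cbd-1*, *egg-1*, *egg-3*, *cpg-1*, *cpg-2* and *rme-2*. Of the other 34 pairs, 29 overlapped. The other 5 did not overlap but missed the threshold: EG4348 above CB4856 and CB4856 above N2 for *egg-1* (adjusted p = 0.350 and 0.127), QX1211 above CB4856 for *perm-2* (0.430), EG4348 above CB4856 for *egg-3* (0.478) and N2 above CB4856 for *chs-1* (0.557). For *egg-1* the second of these gaps lay between 5106 to 5216 in CB4856 and 4561 to 4659 in N2. The pattern was also seen in libraries that these tests did not use: under *pos-1* RNAi, the QX1211 libraries were all below the N2 libraries for *cbd-1*, *egg-1*, *egg-3*, *cpg-1* and *cpg-2*, 5 of the 10 genes, as for 15.8% of all genes, while those of *rme-2* overlapped.

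Among the other strains differences were fewer. EG4348 was higher than N2 for *perm-2*, *perm-4*, *egg-1* and *egg-2* (4 genes; 4.33% of all genes), with log2 fold changes of 0.26, 0.20, 0.26 and 0.29. This count was 2 without EG4348 control replicate 2 or without N2 control replicate 1. JU1088 was higher than N2 for *egg-1* alone (0.27; 1.8% of all genes) and CB4856 for *egg-2* alone (0.25; 4.79%), and each of these single calls was lost when certain control libraries were left out: JU1088 replicate 3 for *egg-1*, and CB4856 replicate 1 or 3 or N2 replicate 2 for *egg-2*. Each count was 2 without QX1211 replicate 1, which shares the model, and that of JU1088 also without QX1211 replicate 3. CB4856 was lower than EG4348 for *perm-4*, *chs-1* and *cpg-1* (4.54% of all genes), but the count fell to 0 or 1 without any 1 of 5 of the 6 libraries compared (CB4856 replicates 1, 2 and 3 and EG4348 replicates 1 and 2). Between EG4348 and JU1088, edgeR called 0 genes of the 10 (6.87% of all genes; 0 at an unadjusted p under 0.05, and 0 by DESeq2). Between CB4856 and JU1088 it also called 0 (6.45% of all genes; 2 at an unadjusted p under 0.05, and 1 by DESeq2).

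Markers of other cell types were compared between strains as well. Summed over 6 markers of muscle, epidermis, intestine and neurons, QX1211 controls had 1192 to 1312 TPM and N2 controls 769 to 1211 TPM, which overlapped. Of the 6, 2 were higher in QX1211, as were 9.59% of all genes. Over 5 germline genes the sums were 502 to 523 TPM in QX1211 and 498 to 543 TPM in N2, which overlapped. Of the 5, 1 was lower in QX1211 (11.5% of all genes). Early zygotic genes, which mark embryos inside the worm, summed to 14.6 to 16.9 TPM in QX1211 and 8.86 to 14.1 TPM in N2, which did not overlap. Of the 7 listed 5 were tested, with a median log2 fold change of 0.097. Of those tested, 1 was higher and 0 lower in QX1211 (9.59% and 11.5% of all genes). Sperm genes, of which *spe-38* was at 0 in the controls of both strains, summed to 37.0 to 76.4 TPM in QX1211 and 25.1 to 67.5 TPM in N2. The sperm sums overlapped, and of the 7 sperm genes tested 2 were lower and 0 higher in QX1211 (11.5% and 9.59% of all genes). The median log2 fold change of the 7 was above 0, at 0.379. EG4348 controls had the highest mean for 9 of the 10 genes. There, sperm genes summed to 3.15 to 7.32 TPM and early zygotic genes to 3.77 to 6.89 TPM, both below N2. Against N2, 4 of 7 sperm and 1 of 5 early zygotic genes tested were lower and 0 higher (median log2 fold changes -2.634 and -1.441). Of the germline and somatic markers 0 passed. Of all 16490 genes tested, 2208 differed in either direction. The part of these markers in the strain differences was not tested.

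**Figure D2:**
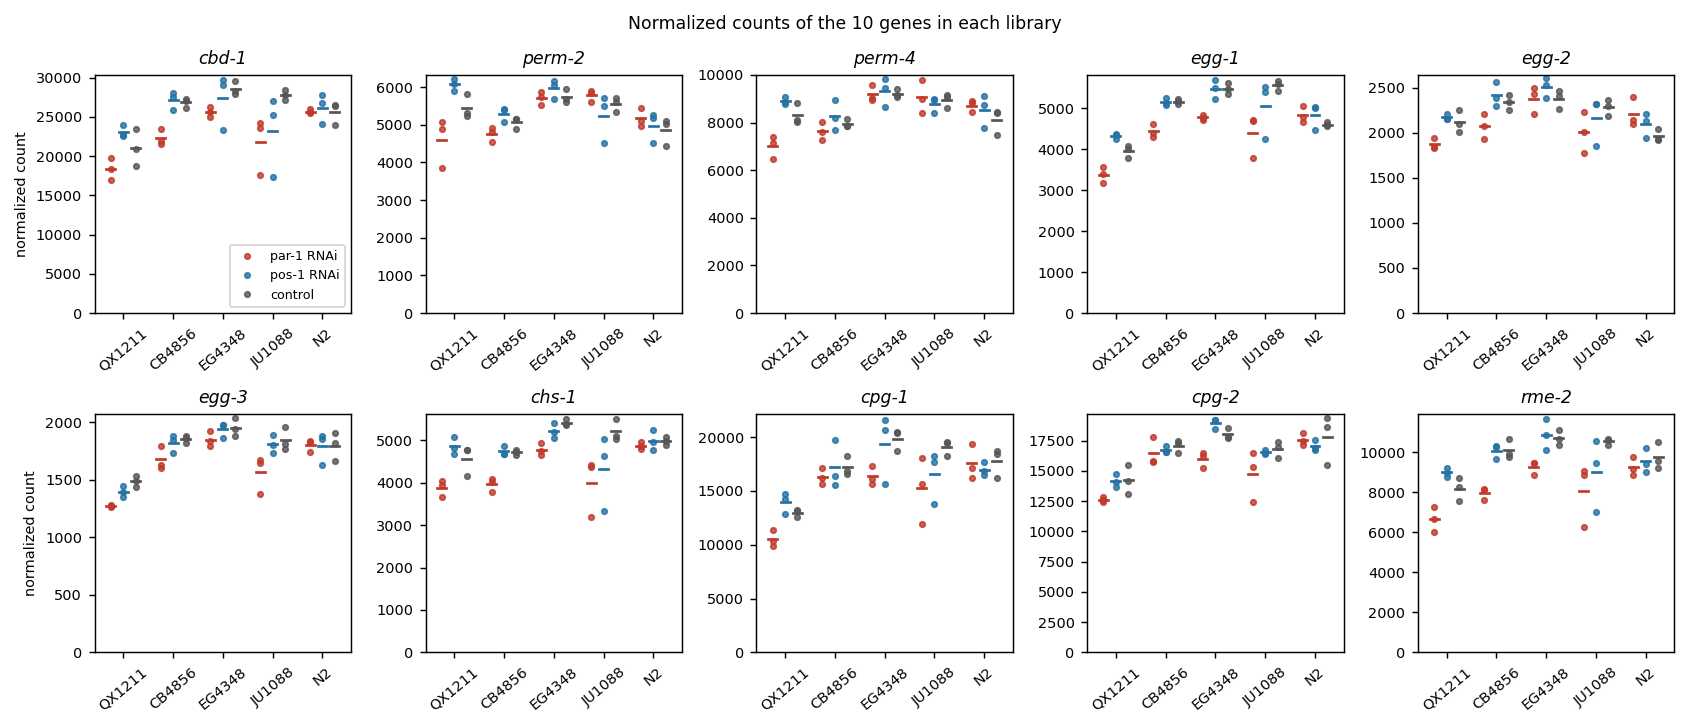
Normalized counts (vertical axes, starting at 0) of the 10 genes in all 45 libraries, by strain (horizontal axes), with *par-1* RNAi, *pos-1* RNAi and control from left to right in each strain. Points are libraries and bars are means of 3. Over all libraries the highest value exceeded the lowest by a factor of 1.47 (*egg-2*) to 2.19 (*cpg-1*), and the red points of QX1211 are the lowest of most panels.

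Next, the response to RNAi was asked within each strain, each treatment against the control of the same strain. At an adjusted p under 0.1 with a fold change above 1.5, the rule used for single strains, edgeR called none, 0 of 100 tests of the 10 genes in 10 comparisons, and DESeq2 also called 0. Of all genes, *par-1* RNAi changed 5.15% in QX1211, 4.4% in CB4856, 2.38% in EG4348, 8.5% in JU1088 and 1.16% in N2, and *pos-1* RNAi changed 0.0807% in QX1211, 0.156% in CB4856, 0.0646% in EG4348, 8.23% in JU1088 and 0.215% in N2. At an unadjusted p under 0.05, *par-1* RNAi gave 9 of the 10 genes in QX1211, 6 in CB4856, 5 in EG4348, 8 in JU1088 and 1 in N2, and *pos-1* RNAi gave 2 in JU1088 and 0 in each other strain. The differences were thus small in size where they passed a test of p alone. Counts at an unadjusted p, here and elsewhere, were not set beside a share of all genes, as none was computed for that threshold. With the fold minimum dropped, *par-1* RNAi lowered 6 of the 10 genes in QX1211 (3.42% of all genes), 6 in JU1088 (5.76%) and 2 in CB4856 (2.03%), and 0 in EG4348 (0.732%; 1 by DESeq2) and in N2 (0.522%; 0 by DESeq2).

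In QX1211, *par-1* RNAi lowered *perm-2*, *perm-4*, *egg-1*, *egg-3*, *cpg-1* and *rme-2* relative to the QX1211 control, with log2 fold changes between -0.32 and -0.25. The *rme-2* counts were 6690, 6040 and 7269 under *par-1* RNAi, against 7554, 8249 and 8729 in the control (-0.32 ± 0.10 SE, adjusted p = 0.0628). The *perm-4* counts were 7151, 6485 and 7373 under *par-1* RNAi, against 8099, 8007 and 8804 in the control (-0.27 ± 0.07 SE, adjusted p = 0.0162). For 9 of the 10 genes, all but *cbd-1*, the 3 *par-1* RNAi libraries were all below the 3 controls, as for 7.7% of all genes. QX1211 *par-1* RNAi replicate 2 had the lowest value of all 45 libraries for 7 of the 10 genes. Without it 0 of the 10 genes passed, without QX1211 control replicate 1 only *perm-4* passed, and with no filter on low counts 2 passed. The log2 fold changes without that *par-1* RNAi library were still all below 0, from -0.25 for *cpg-1* to -0.13 for *perm-2*.

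In JU1088, *par-1* RNAi lowered *cbd-1*, *egg-1*, *egg-3*, *chs-1*, *cpg-1* and *rme-2*, with log2 fold changes between -0.38 and -0.23. The *egg-1* counts were 4717, 3787 and 4699 under *par-1* RNAi, against 5593, 5426 and 5661 in the control (-0.33 ± 0.07 SE, adjusted p = 0.00251). The *chs-1* counts were 4378, 3191 and 4408 under *par-1* RNAi, against 5510, 5110 and 5022 in the control (-0.38 ± 0.09 SE, adjusted p = 0.0055). In both genes replicate 2 was far below its group, and the groups did not overlap in any of the 6 genes (13.0% of all genes). Without JU1088 *par-1* RNAi replicate 2 only *egg-1* passed (-0.25, adjusted p = 0.0655), and in a model of the JU1088 libraries alone 0 of the 10 genes passed. The genes *perm-2*, *perm-4*, *egg-2* and *cpg-2* did not pass. Of these, *perm-2* had 5897, 5605 and 5850 under *par-1* RNAi against 5341, 5596 and 5705 in the control, and *perm-4* had 8984, 8413 and 9792 against 9083, 8594 and 9149. In both the groups overlapped, with log2 fold changes of 0.06 (adjusted p = 0.681) and 0.02 (adjusted p = 0.915).

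In CB4856, *egg-1* and *rme-2* passed. The *rme-2* counts were 7599, 8155 and 8128 under *par-1* RNAi, against 10656, 9790 and 9907 in the control (-0.35 ± 0.10 SE, adjusted p = 0.0475), and the *egg-1* counts were 4304, 4392 and 4628 against 5216, 5106 and 5170 (-0.22 ± 0.07 SE, adjusted p = 0.0827). Neither gene overlapped between the groups, nor did *cbd-1*, *egg-2*, *egg-3* or *chs-1*, which makes 6 of the 10 genes, against 10.0% of all genes. The count of 2 became 0 without CB4856 control replicate 1 or 3 or CB4856 *par-1* RNAi replicate 1 or 2, 1 without CB4856 control replicate 2 or any of 3 QX1211 libraries (control replicate 2, *par-1* RNAi replicate 3 and *pos-1* RNAi replicate 3), which share the model, and 4 without JU1088 *pos-1* RNAi replicate 2. In EG4348 no gene passed, but 6 of the 10 lay below the control in all 3 libraries (9.67% of all genes). For *cpg-1* these were 15622, 17318 and 16120 under *par-1* RNAi, against 20342, 18731 and 20464 in the control.

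In N2 the values did not share this sign. None of the 10 genes lay below the control in all 3 *par-1* RNAi libraries (6.9% of all genes), and *egg-1* and *egg-2* lay above it (7.43% of all genes above). The *egg-2* counts were 2096, 2142 and 2400 under *par-1* RNAi, against 1933, 1923 and 2041 in the control. The *rme-2* counts were 9758, 8895 and 9158, against 9222, 10527 and 9569, which overlapped (log2 fold change of -0.08).

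**Figure D3:**
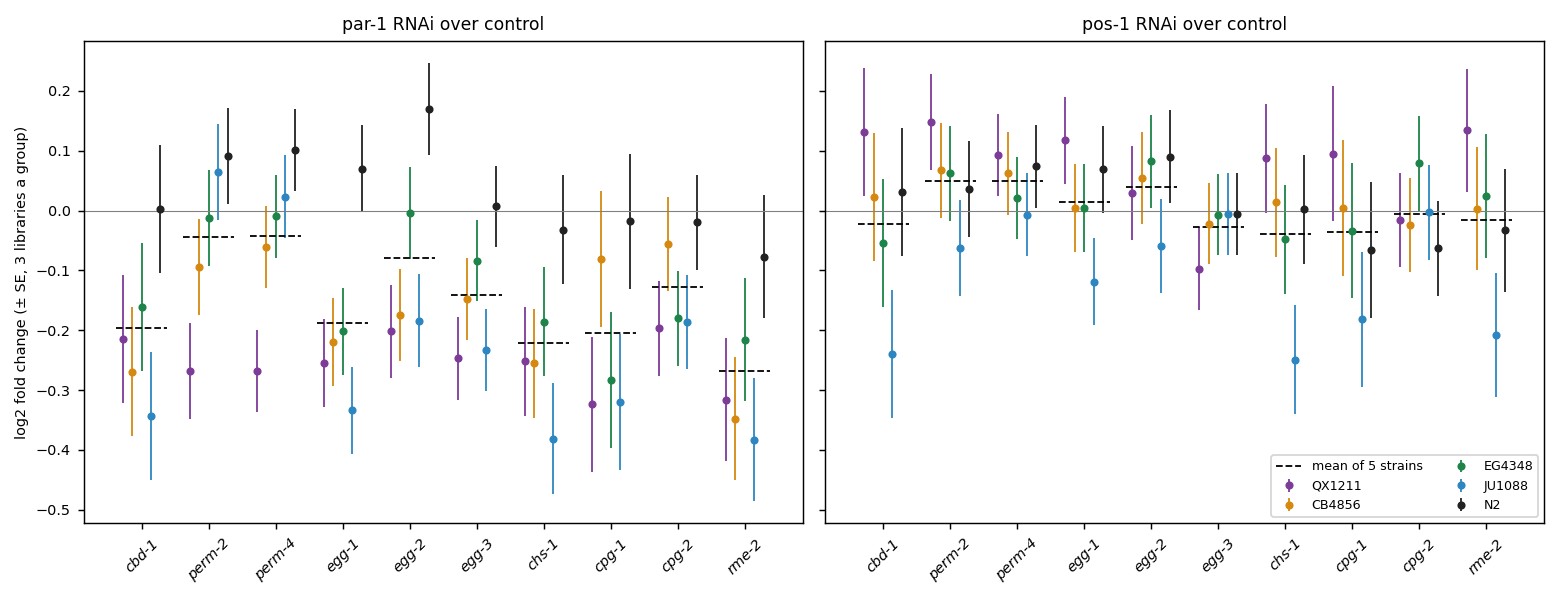
Log2 fold change over the control of the same strain (vertical axis, ± SE, 3 libraries a group) for the 10 genes, with *par-1* RNAi on the left and *pos-1* RNAi on the right. Colours are strains and dashed bars are the mean of the 5 strains; on the left 8 of the 10 dashed bars passed the test, the lowest at -0.27 for *rme-2*, and on the right none did.

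Averaged over the 5 strains, *par-1* RNAi lowered 8 of the 10 genes, where 14.3% of all genes were lower. The median log2 fold change of the 10 genes was -0.165, beside 0.065 for all genes. The yolk receptor *rme-2* fell most. Its counts had a lowest, median and highest value of 6040, 8857 and 9758 in the 15 *par-1* RNAi libraries, against 7554, 10371 and 11136 in the 15 controls. The ranges overlapped, and the mean log2 fold change within strains was -0.27 ± 0.05 (SE, adjusted p = 3.0e-05), which was 17% lower under *par-1* RNAi.

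Chitin synthase *chs-1* followed, with 3191, 4378 and 4960 as lowest, median and highest under *par-1* RNAi, against 4152, 4991 and 5510 in the control (-0.22 ± 0.04 SE, adjusted p = 8.1e-05). The proteoglycan gene *cpg-1* had 9842, 16120 and 19394 against 12589, 18262 and 20464 (-0.21 ± 0.05 SE, adjusted p = 0.00217), and *cpg-2* had 12444, 15827 and 18158 against 13110, 17341 and 19376 (-0.13 ± 0.04 SE, adjusted p = 0.00615). All of these ranges overlapped, and they pool strains that also differ in level. Within N2 the groups of *chs-1*, *cpg-1* and *cpg-2* overlapped too, whereas within QX1211 and EG4348 none of these genes overlapped. In CB4856 *cpg-1* and *cpg-2* overlapped and *chs-1* did not. In JU1088 only *cpg-2* of these genes overlapped. Of the vitelline layer genes, only *cbd-1* passed, with 16984, 23595 and 26293 under *par-1* RNAi against 18723, 27071 and 29514 in the control (-0.20 ± 0.05 SE, adjusted p = 0.00182). For *perm-2* and *perm-4* the log2 fold changes were -0.04 each, and their intervals spanned 0 (adjusted p = 0.430 and 0.356). Among the oocyte surface and cortex genes, *egg-1* fell by 0.19 on the log2 scale (adjusted p = 3.5e-05), *egg-3* by 0.14 (adjusted p = 0.000565) and *egg-2* by 0.08 (adjusted p = 0.0908). With *egg-1* and *egg-2* summed the value was -0.15 (adjusted p = 0.000265).

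Under *pos-1* RNAi, averaged over the 5 strains, edgeR called 0 of the 10 genes, where 2.55% of all genes were called; the count was also 0 at an unadjusted p under 0.05 and 0 by DESeq2. All 10 of the 95% intervals of the log2 fold change lay within -0.14 to 0.12. Within strains and with no fold minimum, only *chs-1* in JU1088 passed (1 of the 10; 4.2% of all genes lower). Its counts were 5042, 3324 and 4641 under *pos-1* RNAi, against 5510, 5110 and 5022 in the control (adjusted p = 0.096), the groups overlapped, and replicate 2 was far below the other libraries. Without that library the log2 fold change was -0.10 (adjusted p = 0.692), beside -0.25 with it, and without JU1088 *pos-1* RNAi replicate 1 the count was 3. The single call lay close to the threshold: the count differed in 32 of the 45 fits that left out 1 library, many of them libraries of CB4856 and EG4348, and was 0 with each strain alone, with no filter and with no length offset. No gene passed in QX1211 (0.0807% of all genes), CB4856 (0.167%), EG4348 (0.0753%) or N2 (0.221%). In QX1211 *perm-2*, *egg-1* and *rme-2* lay above the control in all 3 libraries (3 of the 10 genes; 4.17% of all genes).

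The treatments were also set against each other. Averaged over the 5 strains, all 10 genes were lower under *par-1* RNAi than under *pos-1* RNAi, where 16.0% of all genes were lower, with log2 fold changes from -0.25 for *rme-2* to -0.09 for *perm-2* and *perm-4*. For *rme-2* the lowest, median and highest counts were 6040, 8857 and 9758 with *par-1* double-stranded RNA and 7014, 9674 and 11652 with that of *pos-1*. For *perm-2* they were 3853, 5088 and 5897 with *par-1* and 4503, 5497 and 6216 with *pos-1*. Both pairs of ranges overlapped. The control libraries are shared by the comparisons of each treatment with the control, whereas this one does not use them.

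Whether strains respond differently was tested by the interaction of strain and treatment. It was passed by 0 of the 10 genes in edgeR, where 1.29% of all genes passed; 4 genes had an unadjusted p under 0.05 (*perm-2*, *perm-4*, *egg-1* and *egg-2*), the lowest adjusted p was 0.140 for *perm-2*, and DESeq2 called 3 genes. Without JU1088 *pos-1* RNAi replicate 1 edgeR called 1 gene. With no length offset edgeR called 2 genes. At this threshold, whether the 10 genes respond differently between strains thus depended on the method, and the main edgeR fit did not show it.

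**Figure D4:**
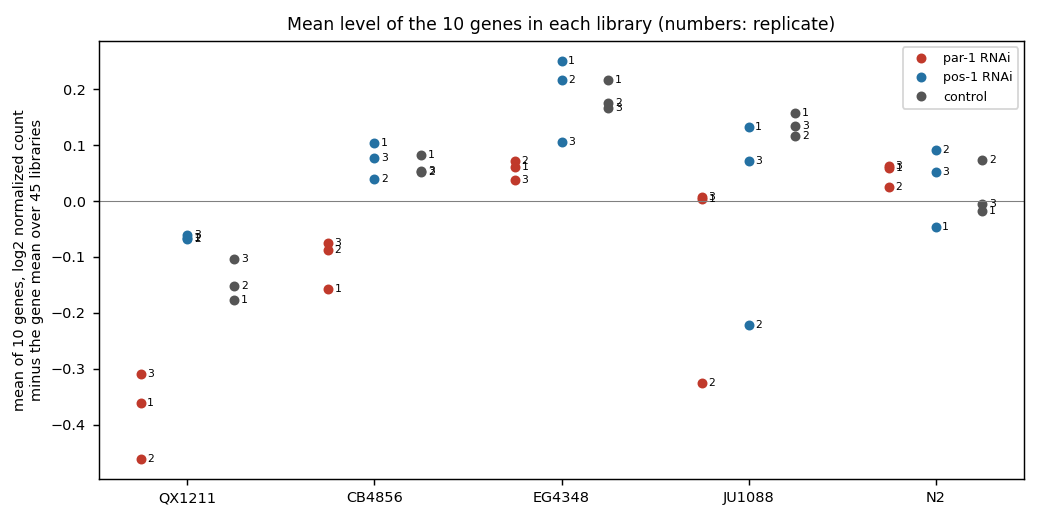
Mean of the 10 genes in each library, as log2 normalized count minus the gene's mean over the 45 libraries (vertical axis), by strain (horizontal axis) and treatment; the digits are replicate numbers. The 3 QX1211 *par-1* RNAi libraries lie between -0.461 and -0.309, below the QX1211 controls at -0.177 to -0.104, and replicate 2 of JU1088 lies at -0.326 with *par-1* RNAi and at -0.222 with *pos-1* RNAi.

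The mean of the 10 genes per library summarised these patterns without a test. In QX1211 it was -0.461 to -0.309 under *par-1* RNAi and -0.177 to -0.104 in the control, on the log2 scale relative to the mean of all libraries. In JU1088 it was 0.004, -0.326 and 0.008 under *par-1* RNAi, and 0.117 to 0.158 in the control. All 3 *par-1* RNAi libraries were below the 3 controls, with replicate 2 the farthest. In N2 it was 0.025 to 0.063 under *par-1* RNAi and -0.017 to 0.074 in the control, which overlapped. EG4348 controls, at 0.166 to 0.216, were the highest controls.

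Ratios between the genes varied more for some pairs than for others. The ratio of *rme-2* to *cbd-1* counts stayed between 0.346 and 0.433 in all 45 libraries, that of *perm-4* to *perm-2* between 1.402 and 1.86 and that of *cpg-1* to *cpg-2* between 0.783 and 1.16. The ratio of *egg-1* to *egg-2* ran from 1.63 to 2.55, that of *perm-2* to *cbd-1* from 0.185 to 0.318 and that of *chs-1* to *egg-3* from 1.91 to 3.76. Over the 15 group means, Pearson's r between pairs of the 10 genes ran from 0.119 for *perm-2* and *cpg-2* to 0.969 for *cbd-1* and *rme-2*. These are descriptions: the means share libraries, and the genes share depth and normalization. By the same measure, among the 8181 genes that averaged 50 or more normalized counts, those outside the 10 with the profile most like the mean of the 10 were *lin-54* (r = 0.973), *gna-2* (0.953), *app-1* (0.946), *acl-6* (0.946) and *htp-1* (0.946). Of these, *gna-2* makes a precursor of chitin. For *rme-2* alone they were *htp-1* (0.984), *mrp-4* (0.973), *imb-3* (0.969) and *klp-15* (0.967), with *cbd-1* of the 10 genes at 0.969.

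Other genes of the same pathways were read from lists. Like the 10 genes, the lists were chosen with earlier results of these data known, so their counts are descriptions. A list of 25 partners of eggshell formation covers sugar precursors, glycosyltransferases, the permeability barrier and the activation machinery of the egg. Under *par-1* RNAi averaged over the 5 strains, 14 of the 25 were lower and 0 higher, where 14.3% of all genes were lower and 18.0% higher. The median log2 fold change of the 25 was -0.147. The largest were *egg-5* (-0.26), a phosphatase-like partner of *egg-3*, *egg-6* (-0.26) and the chondroitin synthase *sqv-5* (-0.25). Under *pos-1* RNAi 1 of the 25 was lower, *pod-2* (-0.34), which encodes acetyl-CoA carboxylase, and 0 were higher. Of all genes, 2.55% were called in either direction. Between strains in the control 13 of the 25 differed (35.1% of all genes). In QX1211 8 were lower and 1 higher than in N2 (11.5% and 9.59% of all genes).

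Of 13 genes of yolk supply and uptake, 6 were higher and 0 lower under *par-1* RNAi averaged over the strains, where 18.0% of all genes were higher, and the other 7 did not pass. The median of the 13 was 0.07, beside 0.065 for all genes. The largest were *vit-3* (0.28), *vit-5* (0.24) and *vit-2* (0.22), which encode vitellogenins, the yolk proteins that *rme-2* binds. The 6 also include *rme-4*, a gene of receptor recycling, not a ligand (0.18). The vitellogenin genes are near-identical in part, so the split of reads among them is uncertain. Of 12 regulators of oocyte development, 9 were lower and 0 higher, where 14.3% of all genes were lower. The largest changes were in the RNA-binding protein genes *puf-11* (-0.23), *lin-41* (-0.20) and *gld-1* (-0.20). With *pos-1* RNAi the median log2 fold changes of the yolk and oocyte lists were 0.04 and 0.03, beside 0.02 for all genes.

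Markers of other cell types moved with *par-1* RNAi too. Averaged over the 5 strains, 4 of 5 germline genes were lower, where 14.3% of all genes were lower. The summed level of the 5 was 440 to 454 TPM under *par-1* RNAi and 502 to 523 TPM in the control in QX1211. In N2 it was 466 to 480 TPM and 498 to 543 TPM. In N2 the germline sums in TPM did not overlap, while the mean log2 normalized count of the 10 genes did. Tested in N2 alone, 0 of the 5 germline genes passed, and 0 had an unadjusted p under 0.05 in edgeR. Averaged over the 5 strains again, 3 of 6 markers of somatic tissues were higher (18.0% of all genes) and 1 lower (14.3%). Of 6 early zygotic genes measured of 7 listed 2 were higher (18.0%) and 1 lower (14.3%). For the 8 sperm genes the median log2 fold change was 0.58 and edgeR passed 0, also 0 at an unadjusted p under 0.05; DESeq2 was not applied to the lists. Their part in the results for the 10 genes was not tested.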

How the data were processed

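RNA of day 1 adult hermaphrodites was measured in 45 libraries. Per the labels, reads were trimmed with Trimmomatic 0.3.9 and quantified with Salmon (1.4.0 and 1.3.0 are named) against a transcriptome built for each strain from WormBase WS276. For each transcript, the authors deposited the estimated count of reads, the TPM (length-scaled abundance within a library) and the effective length. The values called normalized counts are a signal table of the authors, DESeq2 counts divided by size factors and corrected for average transcript length.

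For testing, the transcripts of a gene were added up and the sum rounded to an integer. Genes with at least 10 reads in all libraries of a fit together were tested in R 4.3.3 with edgeR 4.0.16: TMM factors, transcript length offsets, quasi-likelihood F test, and Benjamini-Hochberg adjustment over all genes tested. Strains were compared in a model of the 15 controls (16490 genes), and RNAi in a model of all 45 libraries (18581 genes). The threshold was an adjusted p of 0.1, with a fold change above 1.5 within strains; the 95% intervals use the SE derived from F. The p-values measure the spread between replicates, which were separate plates handled together. No pair of replicates agreed within sampling noise. Depth ranged from 4268834 to 17864647 reads.

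The 10 genes and the lists were chosen with earlier results of these data known. All 10 genes are named. Of the lists of eggshell partners, yolk uptake and oocyte regulators, up to 3 called genes with the largest change are named; germline, sperm, early zygotic and somatic lists are given as counts. The alternatives were DESeq2 1.42.0, RLE factors, no length offset, no filter, filterByExpr, a replicate block, a model of each strain alone, *egg-1* and *egg-2* summed, and each library left out. The steps were tested on simulated data. Gene positions are from Ensembl, not the annotation of the authors.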

Additional observations from a re-analysis of the deposited data

Results flagged for a closer look

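In the *par-1* RNAi comparison, *egg-1* and *egg-2* had strains in which every RNAi library lay on one side of every control and N2 in which every one lay on the other. For *egg-1*, all 3 libraries were below the control in QX1211 (log2 fold change -0.255), CB4856 (-0.22), EG4348 (-0.202) and JU1088 (-0.334), and above it in N2 (0.07). For *egg-2*, all 3 were below the control in QX1211 (-0.202) and CB4856 (-0.175) and above it in N2 (0.17). The test of the difference over all strains and treatments was not passed, with an adjusted p of 0.222 for *egg-1* and 0.343 for *egg-2* (unadjusted p of 0.0093 and 0.0264, edgeR interaction). The N2 values alone did not pass either. The *par-1* transcript itself did not pass in N2 or in any other strain under *par-1* RNAi, and its part in the difference was not tested.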

How the results depend on the processing

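Averaged over the strains, *par-1* RNAi lowered 7 to 8 of the 10 genes with any 1 library left out and *pos-1* RNAi 0, 9 to 10 were lower with *par-1* than with *pos-1* RNAi, and 8 to 10 differed by strain. QX1211 was lower for 5 to 7 genes against N2 and JU1088, 7 to 9 against EG4348 and 5 to 6 against CB4856. Other counts ranged, with 1 library left out, from 0 to 7 for *par-1* RNAi in QX1211, 0 to 4 in CB4856, 1 to 8 in JU1088 and 0 in EG4348 and N2, from 0 to 3 for *pos-1* RNAi in JU1088, 0 to 1 for the interaction, 0 to 4 for CB4856 below EG4348, 2 to 4 for EG4348 above N2, and 0 to 2 for JU1088 and for CB4856 above N2. Within strains 0 tests were called with the fold minimum, and 15 without it. With *par-1* RNAi and no fold minimum, CB4856 gave 4 genes without the 3 libraries of shared fragment length, with each strain alone and with no length offset, and 1 with no filter. EG4348 gave 1 by DESeq2, JU1088 0 with each strain alone, and QX1211 2 with no filter. Leaving out the second replicates of both RNAi treatments in JU1088, chosen after seeing the data, gave 6 in CB4856, 4 in EG4348 and 3 in JU1088, and 1 for the interaction. The single *pos-1* call in JU1088 became 0 in that setting, without the 3 libraries, with each strain alone, with no filter and with no length offset. The interaction gave 3 by DESeq2 and 2 with no length offset. CB4856 below EG4348 gave 0 with no filter. Above N2, JU1088 gave 3 by DESeq2, 4 with no length offset, and 2 with filterByExpr or without the 3 libraries; EG4348 gave 7 with no length offset; CB4856 gave 2 by DESeq2, filterByExpr, no length offset or without the 3 libraries. The cause was not tested. Of the values of single genes, 9006 kept their side of the threshold, 240 no longer passed, 90 newly passed and 0 of those past the threshold in either fit changed direction.

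Of 30 correlations of same-numbered deviations 13 were over 0.1 (range -0.31 to 0.536). Every pair was over 0.1 in 1 comparison of the 10, *pos-1* RNAi in CB4856 (0.203 to 0.422), where 0 genes passed with the block and without it, and in the other 9 the numbers did not pair libraries by this measure. With the replicate block, counts were 7 for *par-1* RNAi in QX1211, 8 for QX1211 below EG4348, 2 for CB4856 below EG4348 and 3 for EG4348 above N2; the other counts equalled those without it. The SE of a log2 fold change within a strain was 0.07 to 0.11, which limits what 3 libraries a group can show. The call of *egg-1* in QX1211 against N2 was lost with the reads of *egg-2* added (-0.12).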
